A study of Mus musculus with 6 samples.

Results

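The receptors described here bind thymic stromal lymphopoietin (TSLP) and the type 2 cytokines, the signals of allergic and T helper 2 immunity. Their 10 chains, Crlf2, Il7r, Il4ra, Il13ra1, Il2rg, Il5ra, Csf2ra, Csf2rb, Csf2rb2 and Il1rl1, were taken by name as a family and matched by NCBI Gene identifier to expression tables of 6 mouse breast tumors. The tables listed 18460 genes in at least 1 tumor and 14502 in all 6, and all 10 chains were listed in all 6.

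All mice were Balb/c, carried the PyMT transgene (a viral oncogene driven in the mammary epithelium by the MMTV promoter), lacked Rag1 and received CD4+ T cells at 4 weeks of age. The 3 control tumors came from PyMTtg;Rag1KO mice and the 3 test tumors from K14-TSLPtg;PyMTtg;Rag1KO mice, in which the keratin 14 promoter makes keratinocytes secrete TSLP. The transferred cells were naive CD4+ T cells sorted from the spleens of donor mice, and the Rag1KO hosts have no T or B cells of their own but keep their innate leukocytes. Tumors were collected between weeks 18 and 20, each from a separate mouse, and the comparison asks which transcripts of the whole tumor differ between hosts with and without the TSLP transgene. Total expected counts were 9249064, 8908390 and 9090055 in control tumors 1 to 3 and 8373390, 8571403 and 9449565 in test tumors 1 to 3.

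Each of these receptors is built from a ligand-binding chain and a partner that carries the signal into the cell. Crlf2 pairs with Il7r to bind TSLP; Il4ra pairs with Il2rg or with Il13ra1 to bind IL-4 or, in the second case, IL-4 and IL-13; Il5ra and Csf2ra, the chains for IL-5 and GM-CSF, share the partner Csf2rb; and Il1rl1 (ST2) joins Il1rap to bind IL-33. Apart from Il1rl1, these chains signal through JAK kinases and STAT factors. Many are carried by leukocytes, while Il4ra and Il13ra1 are also found on epithelial and stromal cells. The paper that reported these tumors also detected the common beta chain and the IL-3-binding and IL-5-binding chains, as proteins, on mouse breast tumor cells.

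The transgene's gene and the deleted gene were read before the receptors. Tslp had 2, 2 and 3 counts in the control tumors and 12, 7 and 2 in the test tumors. Test tumors 1 and 2 thus lay above all 3 control tumors and test tumor 3 did not. The species and construct of the transgene are not described in the sample labels, so the Tslp counts check the labels only in part. Rag1, deleted in both groups, had 27, 4 and 10 counts in the control tumors and 6, 12 and 9 in the test tumors, and a count over the whole gene does not show which part was deleted. Of 7 T cell markers, Lck was well measured at 11 to 34 counts and none was at the floor. Cd4 had 9 to 35 counts and Cd3d 8.21 to 20.6, and both were detected in all 6 tumors. The other markers were sparser: Cd3e had 1 to 7 counts, Cd3g 0 to 5, Cd28 0 to 13 and Cd2 0 to 6. Cd3g, Cd28 and Cd2 were not listed in every tumor.

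Control tumor 2 stood apart from its group. Across the 13706 genes tested, its log2(CPM + 0.5) values (CPM is the count scaled to the library's size) correlated at 0.921, 0.927 and 0.935 with test tumors 1, 2 and 3, and at 0.874 and 0.908 with control tumors 1 and 3. These correlations are across genes, which are not independent replicates. Without this tumor the log2 fold changes described further on were -0.25 beside 0.04 for Il2rg, -0.33 beside -0.08 for Csf2rb2, -0.30 beside -0.14 for Il5ra and -0.095 beside 0.08 for Csf2ra, and those of Crlf2 and Csf2rb are given with the genes.

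Of the 10 chains, 9 were well measured, defined as at least 10 expected counts in each of the 6 tumors, and none was at the floor of 3 counts or fewer in every tumor. Il13ra1 had the most, between 514 and 1639 counts per tumor, followed by Il4ra with 271 to 375. Csf2ra, Csf2rb, Csf2rb2 and Crlf2 had at least 50 counts in every tumor, and Il2rg had between 18 and 107. Il1rl1 and Il5ra passed with lower mean counts and ranges of 28.1 to 53.4 and 19.9 to 48.0. The lowest single count of a passing chain was the 18 of Il2rg, in test tumor 1. Il7r, the signaling partner for TSLP, was the chain at low level, with 8.13 counts in test tumor 1 and 70.9 in control tumor 1. For comparison, 12179 of the 13706 tested genes (88.9%) met the same minimum, which is 66% of the 18460 genes listed.

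**Figure D1:**
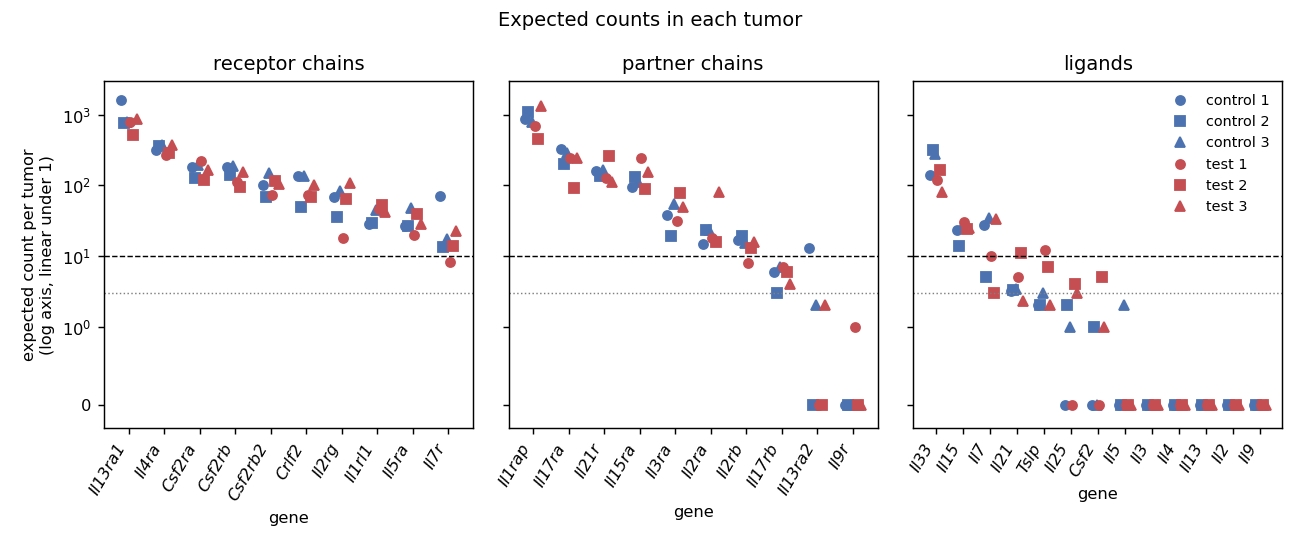
Expected counts in each tumor for the receptor chains, their partner chains and their ligands, on an axis that is logarithmic above 1 count and linear below it. Each point is 1 tumor; the dashed line marks 10 counts and the dotted line 3 counts, and 6 of the 13 ligands lie at or under the dotted line in all 6 tumors.

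The plot of expected counts shows the chains above the dashed line except Il7r in test tumor 1, and most ligands below it. Counting error alone, taken as the inverse square root of the mean count, came to 3.35% for Il13ra1, 5.51% for Il4ra and 10.3% for Crlf2, and to 15.7% for Il1rl1, 17.8% for Il5ra and 20.2% for Il7r. The spread between tumors was mostly wider. In the control tumors the coefficient of variation of TMM-scaled CPM was 51.6% for Il13ra1 and 96.8% for Il7r, several times their counting error, and 4.75% for Il4ra. In the test tumors it was 11.8% for Il4ra, wider than its counting error.

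Levels of different chains were compared per length, as FPKM (fragments scaled to transcript length and library size). Il13ra1 stood at the top with a mean of 26.7 over the 6 tumors, followed by Csf2ra at 10.2, Crlf2 at 7.87, Il4ra at 7.10, Il2rg at 4.34, Csf2rb at 3.33 and Csf2rb2 at 2.44. Il5ra at 0.980, Il1rl1 at 0.910 and Il7r at 0.827 formed the lower end. Among the tested genes, 76.6% had a lower mean FPKM than Il13ra1, 50.8% a lower one than Csf2ra, and 6.29% a lower one than Il7r. The family thus spanned the range from above the middle of the tested genes to near the bottom.

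Neighbours in this order were compared within tumors by an exact paired permutation test on log2(FPKM + 0.1), two-sided, with p-values adjusted over the 9 neighbouring pairs. With 64 sign changes the smallest p was 0.03125, so that no pair could pass after adjustment unless at least 6 of the 9 reached that minimum; 3 did, and none passed. A step in the same direction in 6 of 6 tumors was seen for Il13ra1 over Csf2ra (mean log2 difference 1.33, SD 0.49), Il4ra over Il2rg (0.87, SD 0.80) and Csf2rb2 over Il5ra (1.24, SD 0.20), each at an exact p of 0.03125 and an adjusted p of 0.0938. The other 6 steps did not have the same direction in all 6 tumors. Crlf2 exceeded Il4ra in 4 of 6 tumors by a mean log2 difference of 0.07 (SD 0.55), and Il5ra, Il1rl1 and Il7r could not be put in order.

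**Figure D2:**
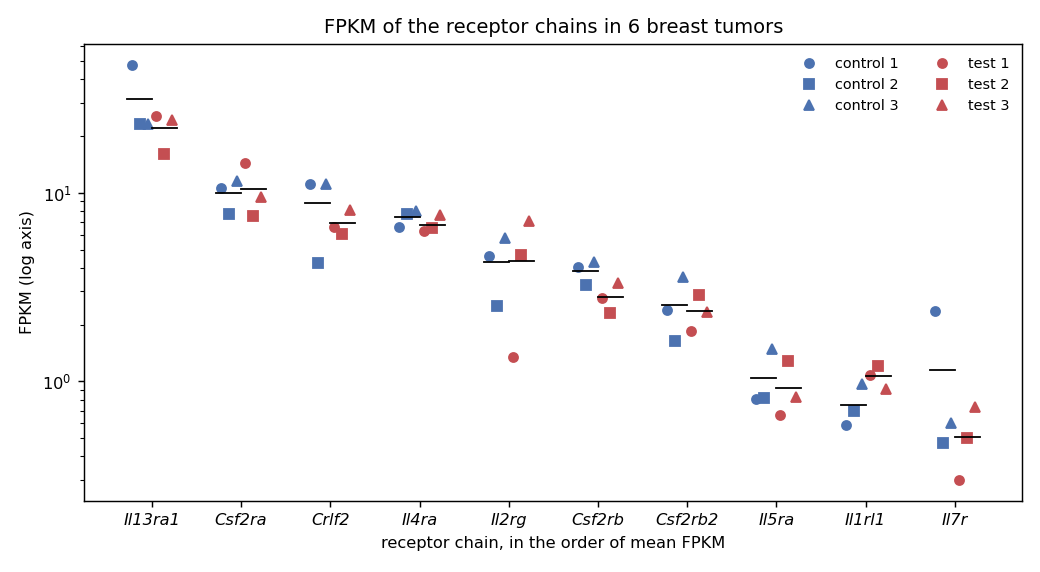
FPKM of each receptor chain on a logarithmic axis, in the order of the mean over 6 tumors. Points are single tumors, blue for control and red for test, and black bars are group means; the groups overlap for all 10 chains.

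In the plot of FPKM by chain the red and blue points interleave. In edgeR's quasi-likelihood test on rounded expected counts, 0 of the 10 chains had an adjusted p of 0.05 or less, as did 0 of all 13706 tested genes (0%). At an unadjusted p under 0.05 the counts were 0 of 10 chains and 1153 genes (8.41%). The lowest adjusted p of the chains was 0.711, for Il7r, and the highest 0.990, for Il2rg. No chain had all test tumors above all control tumors in TMM-scaled CPM (background 6.12% of tested genes), and none had all test tumors below them (background 5.86%). The log2 fold change of test over control was below 0 for 7 chains and above 0 for 3, with a median of -0.13 beside 0.02 over all tested genes.

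Other tools gave other counts. DESeq2 called 344 genes, limma-trend on log2(FPKM + 1) called 1, and neither called any of the chains they tested, 10 and 7. Without control tumor 2, edgeR called 182 genes, 12 of them higher in test tumors, and again 0 of the 10 chains. A Poisson test on counts pooled within groups, which takes no account of the spread between tumors, called 9583 genes (69.9%) and 5 of the 10 chains. A p that misses the threshold does not show equal levels, and the intervals show what the data can still hold: the 95% interval of the log2 fold change was narrowest for Il4ra, from -0.65 to 0.42, and widest for Il7r, from -3.02 to 0.59.

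**Figure D3:**
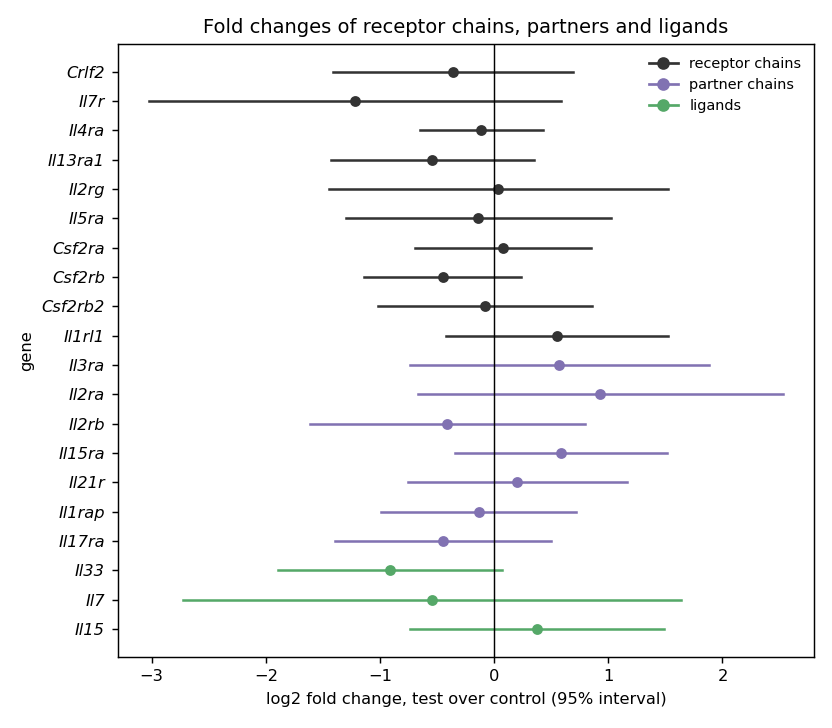
Log2 fold changes of test over control tumors from edgeR's quasi-likelihood fit, with approximate 95% intervals, for the 10 receptor chains, 7 tested partner chains and 3 tested ligands. Every interval crosses 0; that of Il4ra is the narrowest among the receptor chains and that of Il7r the widest.

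The TSLP receptor came first. Crlf2 (Gene 57914, chr5:109554709-109559128, GRCm38), the TSLP-binding chain, had an FPKM of 11.1, 4.23 and 11.2 in control tumors 1 to 3 and 6.58, 6.04 and 8.08 in test tumors 1 to 3. Control tumors 1 and 3 were above every test tumor and control tumor 2 was below every one, so the groups overlapped. The group means were 8.83 ± 3.99 and 6.90 ± 1.06 (SD, n = 3), and the log2 fold change was -0.36 (SE 0.45, adjusted p 0.841 by edgeR's quasi-likelihood test). It was -0.11 without control tumor 1 and -0.20 without control tumor 3. Without control tumor 2 the log2 fold change was -0.705, and all test tumors then lay below the remaining control tumors, as was true of Csf2rb and of 18.8% of tested genes. So 2 of 10 chains stood this way without that tumor, a share close to the background.

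Il7r (Gene 16197, chr15:9506159-9529941) joins Crlf2 to carry the TSLP signal and also pairs with Il2rg to bind IL-7. Its FPKM was 2.36, 0.47 and 0.60 in the control tumors and 0.30, 0.50 and 0.73 in the test tumors. Control tumor 1 alone stood high, and the other 5 tumors overlapped. The log2 fold change of -1.22 (SE 0.78, adjusted p 0.711 by edgeR's quasi-likelihood test) rested on that tumor, since without control tumor 1 it was -0.05. Crlf2 exceeded Il7r in FPKM in all 6 tumors, by a ratio between 4.69 and 21.9.

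Among the IL-4 and IL-13 receptor chains, Il4ra (Gene 16190, chr7:125552271-125579474) binds IL-4 in both receptor types. It had an FPKM of 6.56, 7.71 and 7.97 in the control tumors and 6.25, 6.50 and 7.62 in the test tumors. These 6 values were the closest together of any chain, differing by 1.28 times in CPM from lowest to highest, with test tumor 1 lowest and control tumor 3 highest. The log2 fold change was -0.11 (SE 0.23, adjusted p 0.907 by edgeR's quasi-likelihood test), and the interval kept the fold between 0.638 and 1.34. With a tumor left out this log2 fold change ran from -0.19, without test tumor 3, to -0.03, without test tumor 1.

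Il13ra1 (Gene 16164, chrX:36112108-36171262) is the chain that joins Il4ra to bind IL-13. Its FPKM was 47.7, 23.3 and 23.2 in the control tumors and 25.5, 16.1 and 24.4 in the test tumors. Control tumor 1 was about double the other control tumors, test tumor 2 was lowest, and the rest lay together. The log2 fold change was -0.54 (SE 0.38, adjusted p 0.739 by edgeR's quasi-likelihood test) and -0.04 without control tumor 1. Il13ra1 was above Il4ra in all 6 tumors, with a ratio of Il4ra to Il13ra1 between 0.137 and 0.405.

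Il2rg (Gene 16186, chrX:101264385-101268255), the common gamma chain of the receptors for IL-2, IL-4, IL-7, IL-9, IL-15 and IL-21, had an FPKM of 4.65, 2.52 and 5.76 in the control tumors and 1.34, 4.70 and 7.05 in the test tumors. The lowest and the highest value were both in test tumors, 1 and 3. The log2 fold change of 0.04 had an SE of 0.64 (adjusted p 0.990 by edgeR's quasi-likelihood test), and its sign differed between alternatives, from -0.46 without test tumor 3 to 0.475 without test tumor 1.

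The beta common family follows, whose ligands IL-3, IL-5 and GM-CSF are made by activated T cells among others. Csf2rb (Gene 12983, chr15:78325800-78351001, plus strand) and Csf2rb2 (Gene 12984, chr15:78282507-78305721, minus strand) are neighbouring copies. In the mouse Csf2rb serves IL-3, IL-5 and GM-CSF, and Csf2rb2 serves IL-3 alone. Their coding sequences, 2688 and 2634 bases in GENCODE M21 transcripts, were identical at 95.2% of 2628 aligned bases. The pair below shows the ungapped 60-base coding stretch within a single exon with the most differences, 13, in capitals; it lies in exon 4 of both genes, at chr15:78338893-78338952 (plus strand) for Csf2rb and chr15:78294379-78294438 (minus strand) for Csf2rb2.
Csf2rb: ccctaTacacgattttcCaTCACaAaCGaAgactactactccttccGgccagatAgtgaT
Csf2rb2: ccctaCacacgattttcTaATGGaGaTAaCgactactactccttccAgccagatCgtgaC

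The longest identical stretch of the coding sequences was 242 bases, in exon 14 of both genes, at chr15:78348577-78348818 (plus strand) and chr15:78284630-78284871 (minus strand). It is shown because a read that falls within it cannot be assigned to either copy.
Csf2rb and Csf2rb2: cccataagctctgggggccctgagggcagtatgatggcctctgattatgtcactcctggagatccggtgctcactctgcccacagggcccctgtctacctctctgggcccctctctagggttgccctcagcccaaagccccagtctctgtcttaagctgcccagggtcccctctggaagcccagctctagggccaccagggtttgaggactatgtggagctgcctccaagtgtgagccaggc

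Of all windows of 50 bases in the Csf2rb transcript, 18.9% were also found in that of Csf2rb2, and of windows of 100 bases 7.16%. No other chain shared more than 0.458% of its windows of 50 bases with transcripts of other genes, and none of the other 8 chains shared any window of 100 bases. Reads from shared sequence cannot be assigned to 1 copy, so the split between them is less certain than their sum. Both copies had counts that were not whole numbers in all 6 tumors. Il7r, Il5ra, Csf2ra and Il1rl1 also had such counts in all 6 tumors, Csf2ra without any shared window of 50 bases.

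Csf2rb had an FPKM of 4.04, 3.24 and 4.27 in the control tumors and 2.77, 2.31 and 3.33 in the test tumors. Test tumors 1 and 2 were below every control tumor, and test tumor 3 was just above control tumor 2, which alone made the groups overlap. The group means were 3.85 ± 0.54 and 2.80 ± 0.51 (SD, n = 3), with a log2 fold change of -0.45 (SE 0.29, adjusted p 0.716 by edgeR's quasi-likelihood test). An exact permutation test of the 3 against 3 tumors gave p = 0.2, where the smallest p it can give is 0.1. Leaving out either control tumor 2 or test tumor 3 removed the overlap, with log2 fold changes of -0.58 in both cases. Without test tumor 3, Il4ra too had all test tumors below all control tumors, as did 11.1% of tested genes.

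Csf2rb2 had an FPKM of 2.38, 1.64 and 3.57 in the control tumors and 1.85, 2.88 and 2.34 in the test tumors, and its lowest and highest values were both in control tumors, 2 and 3. Its log2 fold change was -0.08 (SE 0.40, adjusted p 0.965 by edgeR's quasi-likelihood test). Csf2rb took 63.7%, 67.1% and 55.3% of the counts of the pair in the control tumors and 60.7%, 45.4% and 59.6% in the test tumors, so that test tumor 2 was the tumor in which Csf2rb2 had more than its neighbour. With the counts of both copies summed, the log2 fold change was -0.30.

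Csf2ra (Gene 12982, chr19:61217191-61228461), the GM-CSF-binding chain, had an FPKM of 10.6, 7.74 and 11.6 in the control tumors and 14.5, 7.57 and 9.48 in the test tumors. Test tumor 1 was highest, and test tumor 2 and control tumor 2 were lowest. Between groups the log2 fold change was 0.08 (SE 0.33, adjusted p 0.961 by edgeR's quasi-likelihood test). Csf2ra exceeded Csf2rb in all 6 tumors.

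Il5ra (Gene 16192, chr6:106710375-106749037), the IL-5-binding chain known best from eosinophils, had an FPKM of 0.81, 0.82 and 1.48 in the control tumors and 0.66, 1.28 and 0.83 in the test tumors. One tumor of each group, control 3 and test 2, stood above the others. Its log2 fold change was -0.14 (SE 0.50, adjusted p 0.955 by edgeR's quasi-likelihood test). The 4 eosinophil markers summed to an FPKM of 0, 0.03 and 0.52 in the control tumors and 0.10, 0 and 0 in the test tumors. The eosinophil granule genes Epx and Prg2 were at 0 in all 6 tumors, and Ccr3 had 1 count in control tumor 2. Siglecf had 12 counts in control tumor 3, the tumor with the highest Il5ra, and 2 in test tumor 1. Which cells carried the Il5ra transcripts was not tested.

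Il1rl1 (Gene 17082, chr1:40404864-40465418), the IL-33-binding chain, also makes a short soluble form, and the gene's count sums both. Its FPKM was 0.59, 0.70 and 0.97 in the control tumors and 1.08, 1.21 and 0.91 in the test tumors. Test tumors 1 and 2 were above every control tumor, and test tumor 3 lay below control tumor 3. The group means were 0.753 ± 0.196 and 1.07 ± 0.15 (SD, n = 3), and the log2 fold change of 0.55 was the highest among the chains (SE 0.42, adjusted p 0.760 by edgeR's quasi-likelihood test). An exact permutation test of the 3 against 3 tumors gave p = 0.2. Leaving out control tumor 3 or test tumor 3 removed the overlap and gave log2 fold changes of 0.75 and 0.69; in these settings 8.64% and 11.5% of tested genes had all test tumors above all control tumors.

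The chains were next read tumor by tumor. Control tumor 1 held the highest TMM-scaled CPM for 4 chains and control tumor 3 for 3, while control tumor 2 and test tumor 1 each held the lowest for 4. The mean centred log2 level over the 10 chains was 0.38, -0.37 and 0.24 in control tumors 1 to 3 and -0.32, -0.03 and 0.09 in test tumors 1 to 3. Of the 10 chains, 1 was above its own mean in control tumor 2, 2 in test tumor 1 and 4 in test tumor 2, beside 7, 8 and 6 in control tumors 1 and 3 and test tumor 3.

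**Figure D4:**
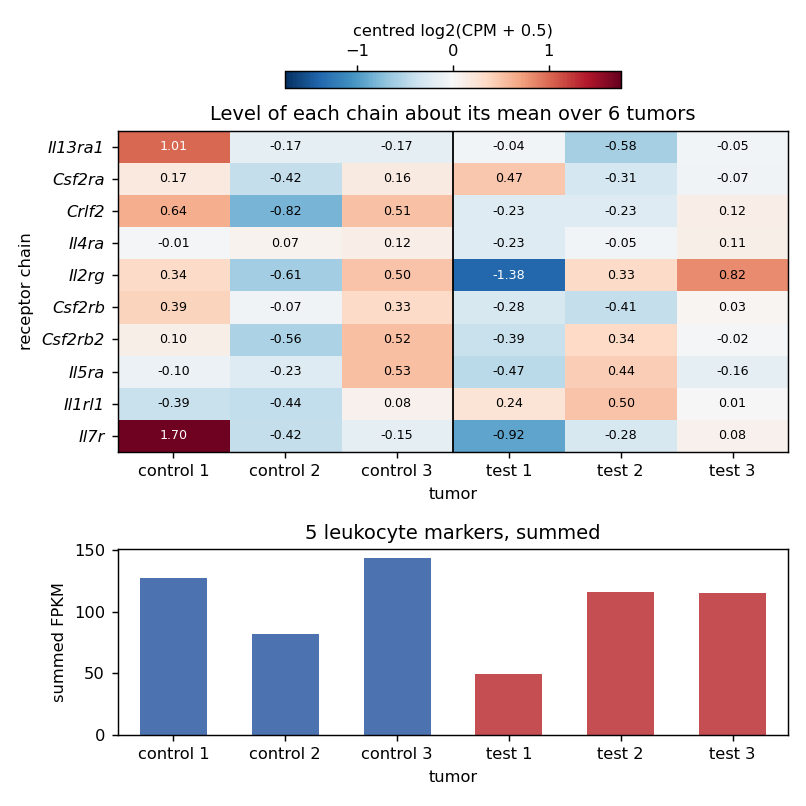
The upper panel gives the level of each receptor chain in each tumor as log2(CPM + 0.5) minus the chain's mean over 6 tumors, red above and blue below that mean. The lower panel gives the summed FPKM of 5 leukocyte markers; the lowest bars, test tumor 1 and control tumor 2, are also the tumors with the fewest chains above their mean.

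Control tumor 2 and test tumor 1 also had the lowest sums of leukocyte markers. The summed FPKM of 5 leukocyte markers (Ptprc, Laptm5, Coro1a, Cd52 and Cd53) was 128, 82.0 and 144 in the control tumors and 49.1, 116 and 115 in the test tumors, as the panels of chain level and marker sum show. All 5 markers had counts, 0 were called, and the most abundant, Laptm5, had a mean FPKM of 50.8 ± 21.8 in control and 31.2 ± 8.20 in test tumors (SD, n = 3). In bulk tissue, fewer cells of a type and less RNA per cell cannot be told apart, and the part of leukocyte content in the levels of the chains was not tested. Csf2ra and Il1rl1 were above their own means in test tumor 1, and Il4ra was above its mean in control tumor 2.

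Markers of single leukocyte types were read in the same way. The 7 macrophage markers, led by Lyz2, summed to an FPKM of 571 ± 228 in control and 495 ± 246 in test tumors (SD, n = 3) with overlapping groups, and all 7 were well measured. The 6 dendritic cell markers, led by Itgax, summed to 10.5 ± 4.75 and 8.92 ± 4.29, and the 7 T cell markers, led by Lck, to 3.46 ± 0.43 and 4.08 ± 1.05. These groups overlapped as well, and T cell transcripts were few although every mouse had received T cells.

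The 7 mast cell or basophil markers, led by Mcpt4, summed to an FPKM of 2.60 ± 1.52 in control and 4.16 ± 3.50 in test tumors (SD, n = 3), and 3 of the 7 had 3 counts or fewer in every tumor. The higher test mean came from test tumor 2, at 8.18 beside 2.51 and 1.79 in test tumors 1 and 3. Hdc, the marker tested, had a log2 fold change of -2.19 (SE 1.05). Mcpt4, Tpsb2 and Cpa3 went the other way, each highest in test tumor 2. Their mean FPKM was 0.53, 0.447 and 0.0767 in control and 1.53, 1.52 and 0.643 in test tumors. The 5 neutrophil markers, led by S100a8, summed to 73.3 ± 44.0 and 41.6 ± 27.6, with Ly6g at 0, and the 4 NK cell or ILC markers, led by Ncr1, to 1.29 ± 0.31 and 1.06 ± 0.97. The summed levels overlapped between groups. Of the markers of these types, 1 mast cell or basophil, 3 neutrophil and 1 NK cell or ILC marker had enough counts for edgeR's quasi-likelihood test, and none of those was called. Of the cells best known for IL-5 and IL-33 receptors, eosinophils left almost no marker transcripts and mast cells few. The mast cell or basophil sum and Il1rl1 were both highest in test tumor 2. In control tumor 1 this sum was 4.21, above test tumors 1 and 3, while Il1rl1 had its lowest FPKM, 0.59. Hdc had 69 counts in control tumor 1 and 1 in test tumor 2. The part of these cells in the levels of the chains was not tested.

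Among 5 epithelial markers, 3 keratins separated the groups. The summed FPKM of Epcam, Krt8, Krt18, Krt19 and Cdh1 was 1024, 2015 and 866 in the control tumors and 2702, 2622 and 2788 in the test tumors, and every test tumor was above every control tumor. Its most abundant gene was Krt18, and none of the 5 was at 0. Krt19, Krt8 and Krt18 had an unadjusted p under 0.05 and groups that did not overlap, beside 8.41% and 6.12% of tested genes (log2 fold changes 1.82, 1.22 and 1.01; edgeR adjusted p 0.394, 0.454 and 0.569). Epcam and Cdh1 overlapped between groups, as did the keratins Krt14 and Krt5, which are outside the list and chosen after their values were seen, and the highest Epcam FPKM of any tumor, 401, was in control tumor 2. Control tumor 2 was the control tumor nearest to the test tumors in this sum. The part of epithelial cells in the levels of the chains was not tested.

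How the chains of a receptor stood to each other was read as the ratio of their FPKM in each tumor, for 9 pairs. Csf2ra over Csf2rb was 2.61, 2.39 and 2.71 in the control tumors and 5.22, 3.28 and 2.85 in the test tumors, so every test tumor was above every control tumor. Csf2rb was itself at the lower end in test tumors, and 16.1% of tested genes showed the same order over Csf2rb. Il3ra, the IL-3-binding chain, over Csf2rb2 was 1.25, 0.939 and 1.20 in the control tumors and 1.45, 2.25 and 1.60 in the test tumors, an order that 1.96% of tested genes showed over Csf2rb2. In the other 7 pairs the groups overlapped, Il3ra over Csf2rb included. These 2 pairs were singled out after their values were seen, no test was made of them, and the split of reads between the copies enters both.

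**Figure D5:**
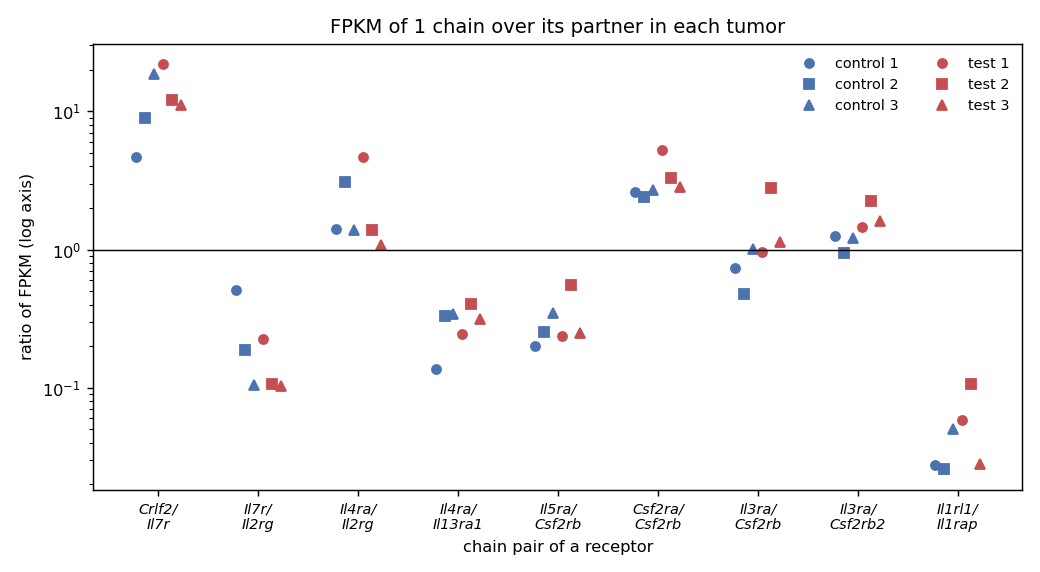
Ratio of the FPKM of 1 receptor chain to that of its partner in each tumor, on a logarithmic axis, for 9 pairs; the line marks equal FPKM. Points are single tumors, blue for control and red for test. Il1rl1 lies furthest below its partner Il1rap, and Crlf2 furthest above Il7r.

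The plot of ratios also shows which chain of a pair had the lower FPKM. These are ratios of RNA in whole tumors, and whether the chains of a pair lay in the same cells was not tested. Il7r was the lower chain of the TSLP receptor and, beside Il2rg, of the IL-7 receptor, in all 6 tumors. Il5ra was between 0.200 and 0.554 times Csf2rb, and Il1rl1 between 0.0257 and 0.106 times Il1rap, the accessory chain that also serves the receptors for IL-1. Il4ra stood above Il2rg and below Il13ra1 in all 6 tumors.

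The partner chains from the wider receptor family were measured unevenly. Of 10, 6 were well measured: Il1rap, Il17ra, Il21r, Il15ra, Il3ra and Il2ra. Il2rb, Il13ra2 and Il17rb were at low level, and Il9r, with 1 count in 1 tumor, was at the floor. Of the 7 tested, 4 had log2 fold changes above 0 and 3 below, 0 were called, 0 had an unadjusted p under 0.05, and the median was 0.20.

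Il3ra had an FPKM of 2.98, 1.54 and 4.30 in the control tumors and 2.68, 6.47 and 3.75 in the test tumors. Its groups overlapped, at a log2 fold change of 0.57 (SE 0.56, adjusted p 0.801 by edgeR's quasi-likelihood test). Il2ra, the alpha chain of the IL-2 receptor, had the highest log2 fold change of the partners, 0.93 (SE 0.69, edgeR adjusted p 0.754), which came from test tumor 3 with an FPKM of 1.93 beside values between 0.35 and 0.58 in the other 5 tumors. Il15ra, which presents IL-15, had 18.3 in test tumor 1 and between 6.16 and 10.4 elsewhere. Il13ra2, the decoy chain for IL-13, had 13 counts in control tumor 1 and at most 2 in any other.

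Most of the ligands had few counts or none. Il3, Il4, Il13, Il2 and Il9 were not listed in any tumor and Il5 had 2 counts in control tumor 3, so these 6 of 13 were at the floor, where a count of 0 allows up to 3 counts in a tumor. Csf2, the gene for GM-CSF, had 1 count in control tumor 2 and 5 and 1 in test tumors 2 and 3. Il25 had at most 4 counts, Il21 at most 11 and Tslp at most 12. Il4 and Il13 were thus not detected in these libraries, whereas Il4ra and Il13ra1 were well measured.

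Of the 3 ligands tested, Il33 was the most abundant, with an FPKM of 6, 14.1 and 11.9 in the control tumors and 5.64, 7.58 and 3.33 in the test tumors. Test tumors 1 and 3 were below every control tumor, and test tumor 2 lay between control tumors 1 and 3. Il33 had a log2 fold change of -0.91 (SE 0.42, unadjusted p 0.064 and adjusted p 0.631 by edgeR's quasi-likelihood test). Il7 had a log2 fold change of -0.54 (SE 0.94) and Il15 of 0.38 (SE 0.48), and 0 of the 3 were called.

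Downstream of the receptors, all 20 signal transducers were well measured, 6 with log2 fold changes above 0 and 14 below, with a median of -0.10 and 0 called. The most abundant was Pik3r1, a regulatory subunit of PI3 kinase, with a mean FPKM of 86.2 ± 14.8 in control and 82.2 ± 33.9 in test tumors (SD, n = 3). Jak3, the kinase bound to Il2rg, was the 1 transducer with an unadjusted p under 0.05 and with groups that did not overlap: its FPKM was 13.4, 11.7 and 12.7 in the control tumors and 7.63, 7.79 and 5 in the test tumors. Over all tested genes the shares were 8.41% for such a p and 5.86% for all test tumors below all control tumors, so 1 of 20 transducers is no result about the list. For Jak3 the log2 fold change was -0.87 (SE 0.28, unadjusted p 0.0148, adjusted p 0.471 by edgeR's quasi-likelihood test). Lowest p-values after it were those of Pik3cd, the leukocyte PI3 kinase subunit, and the adaptor Shc1, at log2 fold changes of -0.94 (SE 0.42) and -0.75 (SE 0.42) and edgeR adjusted p of 0.620 and 0.690.

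Of 7 inhibitors of these receptors, 2 had log2 fold changes above 0 and 5 below, with a median of -0.02 and 0 called. Socs2 was the most abundant, at an FPKM of 25.2 ± 5.89 in control and 26.2 ± 3.02 in test tumors (SD, n = 3). The phosphatase Ptpn6 and the feedback inhibitors Socs1 and Socs3 had the lowest p-values, with log2 fold changes of -0.60 (SE 0.29), -1.48 (SE 0.77) and -0.77 (SE 0.49) and edgeR adjusted p of 0.647, 0.670 and 0.711.

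Genes known to respond to type 2 cytokines closed the pathway. Of 14, 7 were tested, 4 with log2 fold changes above 0 and 3 below, with a median of 0.28, 0 called and 0 with an unadjusted p under 0.05. Postn, a matrix protein induced by IL-13 in several tissues, was the most abundant, at an FPKM of 260 ± 102 in control and 149 ± 67 in test tumors (SD, n = 3; log2 fold change -0.81, SE 0.46, edgeR adjusted p 0.698). Bcl2l1 and Pim1, survival genes under STAT5, had log2 fold changes of 0.51 (SE 0.30) and 0.51 (SE 0.35), and for Pim1 every test tumor was above every control tumor, as for 6.12% of tested genes. Retnla, a gene of macrophages exposed to IL-4, missed the filter on low counts with 0, 6 and 0 counts in the control tumors and 23, 100 and 9 in the test tumors; it was named after its values were seen.

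For each of the 9 well measured chains, the 2 genes with the closest profile over the 6 tumors were found among the 12644 tested genes whose mean FPKM was 1 or more, by the root mean square difference in centred log2(CPM + 0.5). The closest matches were Fam214b and Mier1 for Csf2ra (0.0292 and 0.0401), Ift81 and Washc4 for Csf2rb (0.0411 and 0.0615), and Yipf2 and Rpn2 for Il4ra (0.0465 and 0.0543). Runx3 and Ldb2 were closest to Csf2rb2 (0.0573 and 0.0874), and Ccdc157 and Snx18 to Crlf2 (0.0605 and 0.135). The others were Ddrgk1 and Zfp433 for Il1rl1 (0.0881 and 0.0890), Wrap73 and Bola3 for Il5ra (0.108 and 0.116), Tmem67 and Mbnl3 for Il13ra1 (0.115 and 0.116), and Ndufa4l2 and Tmem221 for Il2rg (0.169 and 0.189). None of the 10 chains was among these nearest genes. Il5ra, Il1rl1 and Il7r, with a mean FPKM under 1, were not among the genes searched. Each match was picked from 12644 genes on 6 values, and no background distance was computed. The distance is not scaled to a chain's spread, so it cannot be compared between chains, and shared regulation was not tested.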

How the data were processed

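Total RNA of 6 whole breast tumors was sequenced by the Beijing Genomics Institute on an Illumina instrument. The authors deposited, per gene, expected counts (RSEM) and FPKM values; the submitters' processing notes name Bowtie, BWA, RSEM and mm10, with no versions. Genes were joined by NCBI Gene identifier, genes absent from a tumor were set to 0, and 18400 of 18460 identifiers matched a RefSeq symbol (GRCm38.p6). Coordinates are from that annotation, and exons and transcript sequences from GENCODE M21 (GRCm38). The read length is not given in the sources used here.

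After rounding the expected counts to integers, test and control tumors were compared by edgeR 4.0.16 in R 4.3.3 (TMM, filterByExpr, glmQLFit, glmQLFTest), with Benjamini-Hochberg adjustment over 13706 genes; DESeq2 1.42.0 and limma 3.58.1 were alternatives. The script was tested on simulated counts. Intervals are approximate, from the fold change and its F statistic. Coding sequences were aligned with Biopython 1.88. Neighbouring levels were compared by exact paired permutation, single genes by exact permutation.

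Named genes were the 10 chains, all partner chains and ligands, and the 2 nearest genes of each well measured chain. Of each other list they were the gene of highest mean FPKM and up to 3 of lowest p, with defining markers at 0. Coro1a and Cd52, named to give the leukocyte list in full, fall outside this rule. Cd3e, Cd3g, Cd28 and Cd2, named to give the T cell list in full, also fall outside it. So do Rag1, Ccr3, Epcam, Cdh1, Krt14, Krt5, Retnla, Tpsb2 and Cpa3, which were chosen after their values were seen. The members and lists were chosen with earlier results of these data known. Counting errors and floors cover counting error only. A list among those examined is not reported here.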

Additional observations from a re-analysis of the deposited data

How the results depend on the processing

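Of the chains tested (10, but 7 with limma-trend and 9 with at least 10 counts in every tumor), none was called under 13 of the 14 alternatives, namely edgeR with RLE, without a filter or with at least 10 counts in every tumor, the replicate block, each tumor left out, DESeq2 and both forms of limma-trend; the pooled Poisson test called 5. For all genes the count went from 0 to 344 with DESeq2, 1 with limma-trend on log2(FPKM + 1), 9583 with the pooled Poisson test, and between 0 and 182 with a tumor left out. With the replicate number as a block edgeR called 0 genes. Same-numbered tumors did not deviate together (correlations of -0.025, 0.121 and -0.137), so nothing in the values pairs the tumors by number.

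Chains without overlap numbered between 0 and 3 with a tumor left out (2 without control tumor 2, 1 without control tumor 3 and 3 without test tumor 3, where 18.8% of tested genes were lower, 8.64% higher, and 11.5% higher and 11.1% lower) and 0 on FPKM or RLE CPM. The number well measured was 10 at 5 counts, 7 at 20 counts, 7 at an FPKM of at least 1 in every tumor, and 9 to 10 with a tumor left out. The count of neighbouring levels that passed was 0 with log2(FPKM + 1), log2(FPKM + 0.01) or without Csf2rb and Csf2rb2, which says nothing of stability in a design this small.

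Of 135 alternative log2 fold changes of the chains, 12 changed sign, none of them called. For Il2rg they were -0.13 with the replicate block, -0.11 and -0.19 with limma-trend at pseudocounts of 1 and 0.1, and -0.46 to 0.475 with a tumor left out. With a tumor left out the ranges were -0.47 to 0.17 for Il5ra, -0.18 to 0.24 for Csf2ra and -0.33 to 0.20 for Csf2rb2. Il5ra was 0.17 without control tumor 3 and 0.07 without test tumor 1, Csf2ra -0.095 without control tumor 2 and -0.18 without test tumor 1, Csf2rb2 0.20 and 0.09 without control tumor 3 and test tumor 1, and Il2rg -0.25, -0.03 and -0.46 without control tumor 2, test tumor 2 and test tumor 3. The cause was not tested. Most of the ligands had too few counts for a test, and whether depth or absence of the transcripts lay behind this was not tested.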

Other observations

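Markers of tissue around the tumors differed more between tumors than any receptor chain. The 5 adipocyte markers, led by Fabp4, summed to an FPKM of 455 in test tumor 1 and 121 in test tumor 2, and to between 21.8 and 37.0 in the other 4 tumors. All 3 tested, Cfd, Adipoq and Fabp4, had an unadjusted p under 0.05 by edgeR's quasi-likelihood test, beside 8.41% of all tested genes. Their log2 fold changes were 5.10, 4.31 and 2.03 (SE 1.60, 1.54 and 0.79, edgeR adjusted p 0.460, 0.506 and 0.547), with overlapping groups. The 5 skeletal muscle markers, led by Acta1, summed to 416 in test tumor 1 and to between 2.55 and 96.6 elsewhere; all 5 had log2 fold changes above 0, with a median of 2.96 and 0 with an unadjusted p under 0.05. Test tumor 1 was thus the tumor with the highest sums of adipocyte and muscle markers and the lowest sum of the 5 leukocyte markers. It held the highest Csf2ra and the lowest Il2rg, Il7r, Il4ra and Il5ra.

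Fibroblast markers, led by Col1a1, summed to an FPKM of 331 ± 147 in control and 477 ± 266 in test tumors (SD, n = 3), and endothelial markers, led by Pecam1, to 26.8 ± 5.03 and 25.9 ± 4.53. The groups overlapped in both sums, and 0 genes of these lists were called by edgeR's quasi-likelihood test.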
